A study of Mus musculus with 10 samples.

Results

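The mitochondrially encoded genes are the 37 rows of the count table whose symbol starts with MT-, of 58735 rows in all. They were taken by name, as a set chosen with earlier results of these data known, and the same 37 rows are the only ones placed on chromosome MT. They comprise 13 mRNA genes, 2 rRNA genes and 22 tRNA genes, with 28 rows on the plus strand and 9 on the minus strand. The minus-strand rows are the mRNA gene MT-ND6 and 8 tRNA genes. Each was followed across 10 tumour libraries.

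The tumours were grown under the skin of NSG mice (NOD.Cg-Prkdcscid Il2rgtm1Wjl/SzJ), a host that lacks lymphocytes of its own and keeps its own myeloid cells and stroma. All came from LNCaP, a human prostate cancer cell line that depends on androgen signalling, so the tumour cells are those of a single line. All mice were dosed each week, by intraperitoneal injection of 100 µl, with sip-T (sipuleucel-T), human blood cells activated with a prostate antigen fused to a growth factor. The control group (5 libraries) had control sip-T alone, and the IL-15 group (5 libraries) had control sip-T with rhIL-15 at 1 µg. IL-15 is a cytokine on which NK cells and memory T cells depend, and rh marks the recombinant human form. The series' design text also speaks of cells treated with IL-15, so treating the cells and injecting the cytokine cannot be told apart here. Tumours were collected on day 7 after the last injection. The sources used here do not give the age or sex of the mice. The labels do not state that each library is a separate animal, so p-values measure only the spread between these libraries.

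The libraries held 13.6 to 19.3 times 1e+06 counts on human genes. Sums over the 10 LNCaP and prostate epithelium markers ran from 7922 to 14068 CPM (counts per 1e+06 counts of a library), so the labelled cell line is present in every library. Human T cell markers (14 genes, 0 of them at 0 in all libraries) summed to 3.74 to 18.0 CPM in control and 5.28 to 50.9 CPM in IL-15 libraries. NK cell and cytotoxicity markers (11 genes, 0 at 0 throughout) summed to 1.15 to 14.6 and 3.88 to 41.7 CPM. B cell markers reached at most 0.636 CPM with FCRL1 and MS4A1 at 0, and the 10 myeloid markers reached at most 5.53 CPM with CD1C and CLEC9A at 0. The part of injected human cells, or of host RNA, in the mitochondrial values was not tested. In bulk RNA, fewer cells of a type and less RNA per cell cannot be told apart.

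Human mitochondrial DNA is a small circle that keeps a remnant of the bacterial genome from which mitochondria descend. Both strands are transcribed into long precursors by a dedicated polymerase, and the tRNAs that lie between most genes are cut out to release the mRNAs and rRNAs. The mRNAs encode core subunits of respiratory complexes I, III and IV and of ATP synthase, the rRNAs build the mitochondrial ribosome, and the tRNAs decode the mRNAs. All other parts of these machines are encoded in the nucleus and imported. Many mitochondrial RNAs share a precursor, and processing, modification, decay and the point where transcription ends are known to set how their levels differ.

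Together the 37 genes took 7.07% ± 0.788 (SD, n = 10) of the counts of a library, from 5.84% to 7.95%. The mRNA genes held 5.71% ± 0.629, the rRNA genes 1.34% ± 0.201 and the tRNA genes 0.0217% ± 0.00372. A few dominant RNAs, among them the rRNA gene MT-RNR2, made up most of this. MT-CO1 alone supplied 27.3% ± 1.18 of all mitochondrial counts, MT-RNR2 15.7% ± 1.06, MT-CO3 9.95% ± 0.497, MT-ND4 9.57% ± 0.659 and MT-CO2 8.34% ± 0.662. Whether poly(A) RNA was selected or rRNA removed is not stated, so the rRNA share of the libraries may differ from that of the tumour RNA. Counting error was small at this depth: the widest Wilson 95% interval of a library's share was 0.0283 percentage points wide for all 37 genes and 0.00172 for the tRNA genes. These intervals cover counting error only, since reads without molecular identifiers are not independent molecules.

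**Figure D1:**
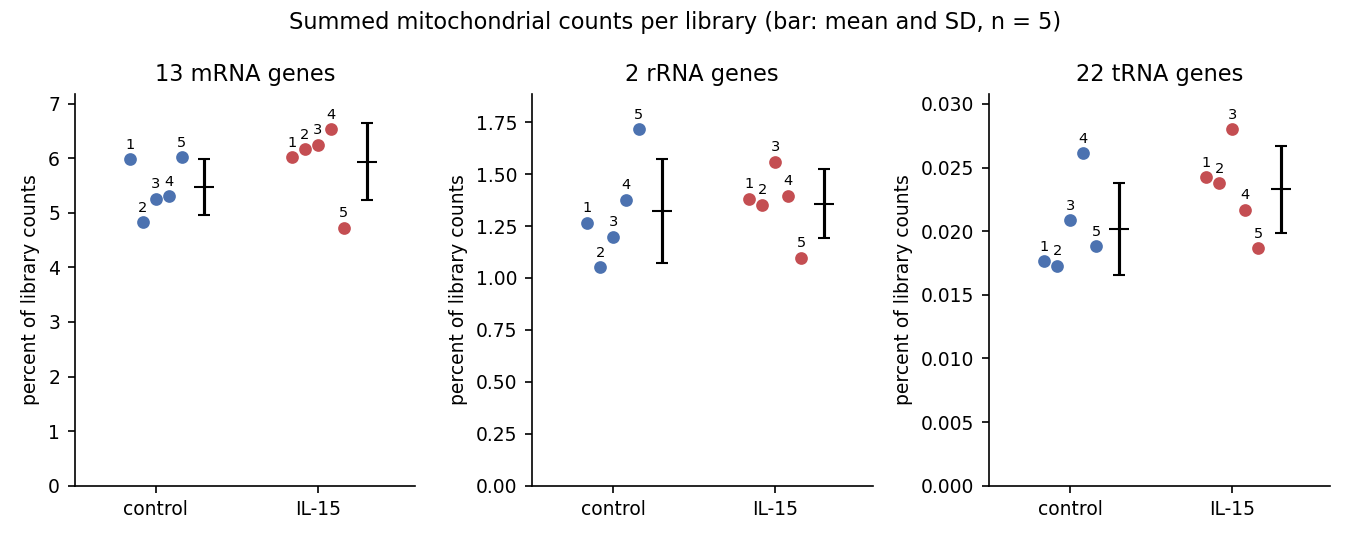
Percent of each library's counts that fell on the mitochondrial mRNA, rRNA and tRNA genes, 1 point per library with its replicate number, and a bar for the group mean with its SD (n = 5 each). The groups overlap in every panel, and IL-15 library 5 lies lowest of its group in the mRNA panel at 4.73%.

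Compared per length, as the deposited FPKM (fragments per kilobase of gene, scaled to the size of the library), the subunits of complex IV led. This complex, cytochrome c oxidase, passes electrons to oxygen. MT-CO1, its catalytic subunit, stood at 11347 ± 1247 FPKM (SD, n = 10; positions 5904 to 7445 of chromosome MT, plus strand, hg38), and was the highest member in all 10 libraries. MT-CO3 followed at 8159 ± 1089 and MT-CO2, which takes electrons from cytochrome c, at 7830 ± 1119. The order of these 2 subunits was not fixed, since MT-CO3 exceeded MT-CO2 in 5 of 10 libraries.

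The large rRNA gene MT-RNR2 (6484 ± 917 FPKM) and MT-ATP6, the proton channel subunit of ATP synthase (5978 ± 847 FPKM), came next and did not differ beyond their spread. MT-ND4, a proton-pumping subunit of complex I, was at 4454 ± 547 FPKM. MT-CYB, the only complex III subunit made in the mitochondrion, was at 3121 ± 401 FPKM and overlapped in spread with MT-ND1 at 2847 ± 366. MT-ND2 (2339 ± 247), MT-ND4L (2205 ± 342) and the small rRNA gene MT-RNR1 (2170 ± 802) formed a group whose members could not be ordered beyond their SD. As poly(A) selection and rRNA removal are not stated, the place of both rRNA genes in this order holds for the libraries only.

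The lowest complex I members were MT-ND3 (1331 ± 253 FPKM), MT-ND6 (1279 ± 347 FPKM) and MT-ND5 (983 ± 146 FPKM). MT-ND3 and MT-ND6 each led the other in 5 of 10 libraries, while MT-ND6 exceeded MT-ND5 in all 10. MT-ATP8, the small accessory subunit of ATP synthase, was listed at only 258 ± 42.0 FPKM. Its level was 0.0433 ± 0.00551 (SD, n = 10) of that of MT-ATP6, although both genes are known to share 1 mRNA. The 207 bases of MT-ATP8 (positions 8366 to 8572) overlap MT-ATP6 (8527 to 9207) by 46 bases. MT-ND4L and MT-ND4 likewise share an mRNA and overlap by 7 bases, and their FPKM ratio was 0.498 ± 0.0735. Reads that touch both genes of such a pair may have been left uncounted or assigned to either one. The sources used here do not state these counting options. The levels of MT-ATP8 and MT-ND4L are therefore uncertain relative to their partners.

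**Figure D2:**
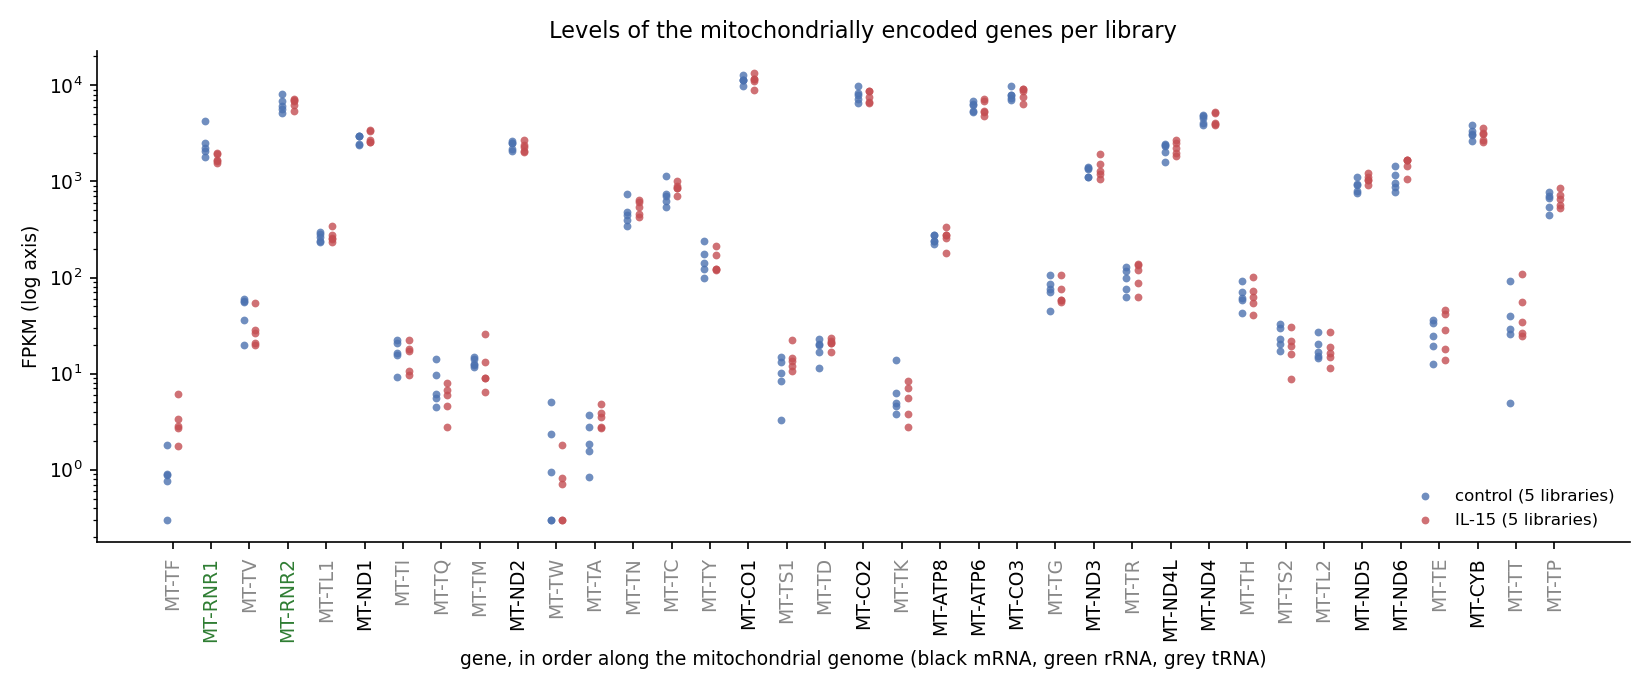
Deposited FPKM of the 37 mitochondrially encoded genes on a log axis, in order along the mitochondrial genome, 1 point per library (5 control, 5 IL-15). The mRNA and rRNA genes lie between MT-ATP8 at a mean of 258 and MT-CO1 at 11347, most tRNA genes lie far below, and the 5 zero values of 370 are drawn at 0.3.

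The tRNA genes were scarce and very uneven, from 1.17 FPKM for MT-TW, the tryptophan tRNA gene, to 810 FPKM for MT-TC, the cysteine tRNA gene. Mature tRNAs are short and heavily modified and are poorly captured by standard libraries. How much of these counts comes from precursors was not tested. Of the 22 genes, 5 had a mean of at least 10 CPM, and these 5 carried 83.7% ± 2.21 (SD, n = 10) of all tRNA counts. They were MT-TC (810 ± 181 FPKM), MT-TP for proline (649 ± 127), MT-TN for asparagine (509 ± 122), MT-TL1 for leucine (269 ± 34.6) and MT-TY for tyrosine (153 ± 46.3).

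All of these but MT-TL1 are minus-strand rows. The 8 minus-strand tRNA genes together held 75.1% ± 3.48 of tRNA counts, against 24.9% for the 14 on the plus strand. Median levels were 90.3 FPKM on the minus strand and 20.8 FPKM on the plus strand. The minus-strand median lies in the wide gap between MT-TY (153 FPKM) and MT-TE (27.4 FPKM). MT-TS1 (12.3 FPKM), MT-TQ (6.83 FPKM) and MT-TA (2.84 FPKM), also on the minus strand, lay below the plus-strand median. MT-TC, MT-TN and MT-TY lie side by side between MT-ND2 and MT-CO1, with the scarce MT-TA next to MT-TN. The sources used here do not state the strandedness, so reads of a minus-strand gene and of RNA from the opposite strand at the same place cannot be told apart. This applies to MT-ND6 as well.

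The mitochondrial mRNA share did not separate the groups. It was 5.98%, 4.83%, 5.26%, 5.30% and 6.02% in control libraries 1 to 5 and 6.02%, 6.16%, 6.25%, 6.53% and 4.73% in IL-15 libraries 1 to 5. In the IL-15 group 4 libraries lay at or above 6.02% and the remaining library, replicate 5, was the lowest of all 10. The log2 difference between group means was 0.11 ± 0.10 (SE). It was 0.19 without IL-15 library 5 and 0.03 when counts were related to the TMM-scaled library size, the scaling used by the test below.

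By complex, complex I mRNAs took 1.54% of counts in control and 1.73% in IL-15 libraries, complex IV mRNAs 3.11% and 3.34%, and ATP synthase mRNAs 0.441% and 0.467%. Each pair of groups overlapped. The rRNA genes took 1.32% ± 0.250 and 1.36% ± 0.166, and the tRNA genes 0.0202% ± 0.00362 and 0.0233% ± 0.00345 (SD, n = 5 each).

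None of the single genes passed the test between groups. The edgeR quasi-likelihood test was fitted over 16913 genes of sufficient count, with p-values adjusted by Benjamini-Hochberg over all of them. It retained 32 members: all 13 mRNA genes, both rRNA genes and 17 tRNA genes. MT-TF, MT-TQ, MT-TW, MT-TA and MT-TK were too scarce. At an adjusted p of 0.05 edgeR called 0 of the 32, and 0 of all 16913 genes (0%). DESeq2 called 0 members and 7 genes in all (0.0414%), 6 higher (0.0355%) and 1 lower (0.00591%), and limma voom called 0 of either. At an unadjusted p under 0.05 edgeR passed 2 of 32 members, MT-ND6 upward and MT-RNR1 downward, beside 6.46% of all genes (3.03% upward and 3.43% downward).

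The fold changes were small for most members. Of the 13 mRNA genes 10 had an estimate above 0, with a median log2 fold change (IL-15 over control) of 0.05, beside 49% of all genes and a median of -0.01. This count depended on the setting: it was 13 of 13 with library size alone as the scaling, which moved the median of all genes by 0.08, and also without control library 5, 8 of 13 with FPKM in place of counts, and 7 of 13 without control library 2 or without IL-15 library 4, where the median of the 13 was 0.00034 and 0.0085. The most abundant mRNAs had estimates near 0: MT-CO1 at 0.03 ± 0.15 (SE), MT-CO2 at -0.04 ± 0.16, MT-CO3 at 0.05 ± 0.16, MT-ATP6 at 0.00 ± 0.16, MT-ND4 at 0.02 ± 0.15 and MT-CYB at -0.06 ± 0.15. MT-CO2, MT-CYB and MT-ND2 (-0.02 ± 0.14) changed sign with library size alone.

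The MT-CO1 values show how far the groups ran into each other. They were 20073, 16367, 17541, 18604 and 20001 CPM in control libraries 1 to 5, and 21510, 19222, 21487, 22886 and 15304 CPM in IL-15 libraries 1 to 5. Highest and lowest values both belonged to the IL-15 group. Of the remaining mRNAs other than MT-ND6, MT-ND4L was at 0.09 ± 0.16, MT-ATP8 at 0.10 ± 0.16, MT-ND1 at 0.11 ± 0.15, MT-ND3 at 0.15 ± 0.17 and MT-ND5 at 0.25 ± 0.14. Single libraries moved the smaller of these estimates: MT-ND4L was at 0.0033 without control library 5, MT-ATP8 at 0.012 and MT-ND3 at 0.020 without IL-15 library 2, and MT-ND1 at 0.044 without IL-15 library 3. The smallest edgeR adjusted p of any member was 0.758.

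**Figure D3:**
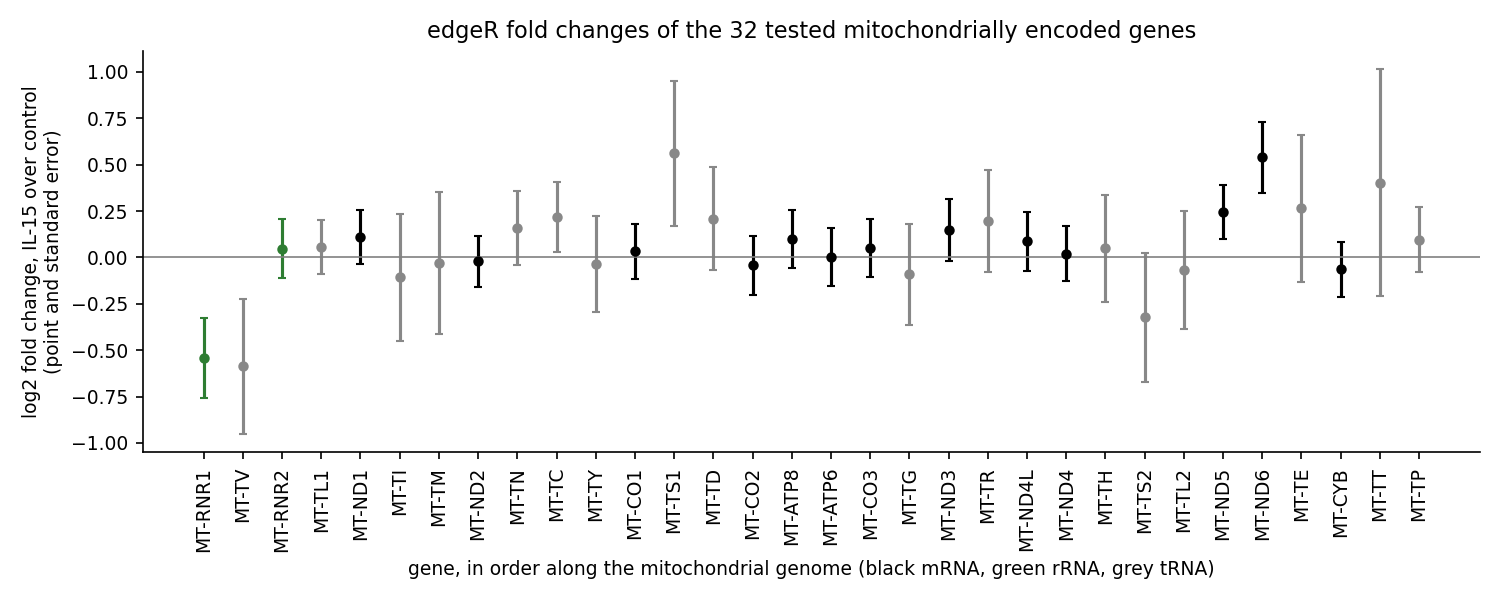
edgeR log2 fold changes (IL-15 over control) of the 32 tested members with their standard errors, in order along the mitochondrial genome. Most mRNA estimates lie near 0, MT-ND6 lies at 0.54 and MT-RNR1 at -0.54, and the widest errors belong to tRNA genes.

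MT-ND6 (ENSG00000198695) had the largest estimate among the mRNAs. It encodes a membrane subunit of complex I and is the only mRNA gene on the minus strand (positions 14149 to 14673), next to MT-ND5 on the plus strand. Control libraries 1 to 5 held 537, 442, 510, 660 and 774 CPM of MT-ND6, and IL-15 libraries 1 to 5 held 899, 952, 1085, 971 and 616 CPM. The IL-15 values exceeded all controls in 4 of 5 libraries, while IL-15 library 5 fell among the controls. The log2 fold change was 0.54 ± 0.19 (SE), with an edgeR adjusted p of 0.758, and it ran from 0.45 to 0.69 when each library was left out in turn.

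MT-RNR1 (ENSG00000211459), the RNA of the small mitoribosomal subunit (positions 648 to 1601, plus strand), showed the opposite sign. Its values were 2316, 1822, 2425, 2279 and 4172 CPM in control libraries 1 to 5 and 2233, 1992, 1962, 1636 and 1729 CPM in IL-15 libraries 1 to 5. Control library 5 stood far above the other 9 libraries. The log2 fold change was -0.54 ± 0.22 (SE; edgeR adjusted p = 0.758) and -0.27 without control library 5. MT-RNR2 (ENSG00000210082), the RNA of the large subunit, which lies just downstream (positions 1671 to 3229), had an estimate of 0.05 ± 0.16. It held 10336, 8700, 9569, 11495 and 12994 CPM in control and 11590, 11544, 13637, 12319 and 9245 CPM in IL-15 libraries.

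Ratios between members of 1 library do not depend on the scaling of that library, and 4 pairs were compared this way, with adjustment over the 4. Both rRNAs are cut from 1 precursor, and the ratio of their counts differed between groups. There were 4.46, 4.77, 3.95, 5.04 and 3.11 MT-RNR2 counts per MT-RNR1 count in control libraries 1 to 5, and 5.19, 5.80, 6.95, 7.53 and 5.35 in IL-15 libraries 1 to 5. Every IL-15 library lay above every control library, by a narrow margin between 5.04 and 5.19. Unequal capture or removal of the rRNAs during library preparation would not cancel in this ratio, and this was not tested.

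The mean ratio rose from 4.27 ± 0.763 in control to 6.16 ± 1.03 in IL-15 libraries (SD, n = 5 each), 1.45-fold by geometric means. The log2 difference was 0.53 ± 0.16 (SE), with a two-sided exact permutation p of 0.00794, the smallest that 252 assignments allow, and an adjusted p of 0.0317. It was the only 1 of the 4 pairs (25%) to pass. The difference ranged from 0.43, without control library 5, to 0.60 as single libraries were left out. With 9 libraries the adjusted exact permutation p was 0.0635 without control library 3 or without IL-15 library 2, 3, 4 or 5, which ends the call. In the other 5 cases it was 0.0317. The test is coarse at this size: for a pair passing alone, 0.0317 is the lowest adjusted p and 0.0635 the next step. This ratio test was run on 4 chosen pairs, from members that were chosen with earlier results of these data known. Its p-values do not allow for that choice, and neither rRNA gene passed the test across all genes.

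Summed T cell markers were higher in 3 IL-15 libraries than in any control, and whether they bear on the rRNA ratio was not tested. IL-15 library 1 had the highest sum (50.9 CPM) and the lowest rRNA ratio of its group (5.19). IL-15 libraries 3 and 4 had sums of 32.4 and 25.1 CPM and the highest ratios, 6.95 and 7.53. Control library 3 had the highest control sum (18.0 CPM) with a ratio of 3.95. In IL-15 libraries 2 and 5 the T cell sums were 5.28 and 7.74 CPM, within the control range, and NK cell sums were 3.88 and 6.42 CPM, within 1.15 to 14.6 CPM. The rRNA ratios of these libraries, 5.80 and 5.35, lay above every control.

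The ratio of MT-ND6 to MT-ND5 counts was 0.321, 0.298, 0.305, 0.308 and 0.443 in control libraries 1 to 5 and 0.409, 0.474, 0.438, 0.393 and 0.340 in IL-15 libraries 1 to 5. The groups overlapped through control library 5, the second highest of all 10. The log2 difference was 0.30 ± 0.13 (SE; exact permutation p = 0.0714, adjusted p = 0.143). Without control library 5 it was 0.41, with an adjusted exact permutation p of 0.0317, so this library decided the call.

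The pairs that share an mRNA gave no call. MT-ATP8 over MT-ATP6 was 0.0128 ± 0.00134 in control and 0.0136 ± 0.00203 in IL-15 libraries (log2 difference 0.08 ± 0.12; adjusted exact permutation p = 0.688). MT-ND4L over MT-ND4 was 0.106 ± 0.0217 and 0.109 ± 0.00911 (0.08 ± 0.16; adjusted exact permutation p = 0.873). Control library 5 had the lowest MT-ND4L to MT-ND4 ratio of all, 0.0691, where the other 9 lay between 0.0975 and 0.128, and without it the log2 difference was -0.07.

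**Figure D4:**
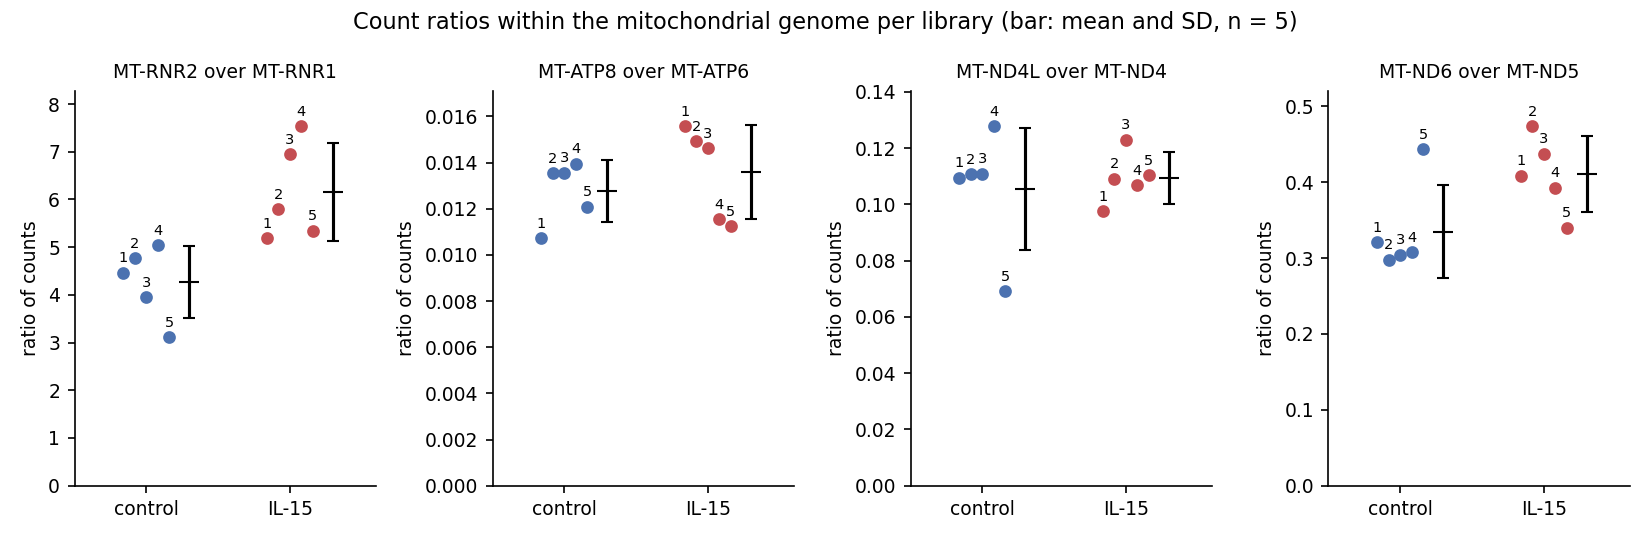
Ratios of counts within the mitochondrial genome for 4 gene pairs, 1 point per library with its replicate number, and a bar for the group mean with its SD (n = 5 each). Only in the MT-RNR2 over MT-RNR1 panel do the groups not overlap, with controls up to 5.04 and IL-15 libraries from 5.19, and control library 5 is the lowest point for MT-ND4L over MT-ND4 at 0.0691.

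Among all 105 ratios that can be formed from the 13 mRNA and 2 rRNA genes, 8 (7.62%) did not overlap between groups. The genes recur, since 5 of the 8 contain MT-ND6 and 4 contain MT-RNR1, 1 of them being MT-ND6 over MT-RNR1. MT-ND6 was higher in all IL-15 libraries relative to MT-CO1, MT-CO3, MT-CYB, MT-RNR2 and MT-RNR1. MT-RNR1 was lower relative to MT-CYB, MT-ND5, MT-ND6 and MT-RNR2. These ratios share genes and were counted without a test. The share among ratios of other genes was not computed, so 7.62% has no background here, and the single-gene shares that follow are another measure. On single-gene levels, 0 of the 32 tested members had groups that did not overlap, beside 0.349% of all genes with IL-15 all above and 0.313% with IL-15 all below.

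The tRNA genes gave 10 estimates above 0 and 7 below among the 17 tested, with a median log2 fold change of 0.05. MT-TC was at 0.22 ± 0.19 (SE), MT-TN at 0.16 ± 0.20, MT-TP at 0.10 ± 0.18, MT-TL1 at 0.05 ± 0.15 and MT-TY at -0.04 ± 0.26. The largest estimates belonged to scarce genes: MT-TV, the valine tRNA gene between the rRNA genes, at -0.59 ± 0.36, and MT-TS1 for serine at 0.56 ± 0.39. MT-TF, the phenylalanine tRNA gene just upstream of MT-RNR1, had 5 counts over all control libraries (0 to 2 each) and 21 over all IL-15 libraries (2 to 8 each). These counts are at or near the floor of 3 counts, so no fold is given.

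The tRNA genes did not share 1 pattern over the libraries. MT-TC held 48.1, 38.7, 49.2, 81.0 and 47.8 CPM in control libraries 1 to 5, and 70.8, 60.5, 82.8, 62.4 and 50.8 CPM in IL-15 libraries 1 to 5. Control library 4 and IL-15 library 3 were the highest of their groups. The same libraries led their groups for MT-TT, the threonine tRNA gene, at 6.53 and 8.96 CPM where no other library exceeded 3.93. MT-TP peaked instead in control library 3 (53.7 CPM) and IL-15 library 2 (62.9 CPM), and MT-TG, the glycine tRNA gene, had its lowest control value, 3.26 CPM, in control library 4.

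To see how the composition of the mitochondrial RNA varied, each gene was set against the summed mitochondrial mRNA of its library, as a log2 deviation from the mean over 10 libraries. Over the 15 mRNA and rRNA genes control library 5 had the most skewed composition, with an SD of 0.308 over the genes against 0.103 to 0.213 in the other 9. Among these genes its extremes were MT-RNR1 at 0.85 and MT-ND4L at -0.66. Of the same 15 genes MT-ND6 deviated most in 5 libraries, low in control libraries 1 to 3 (-0.49, -0.46 and -0.38) and high in IL-15 libraries 1 and 3 (0.25 and 0.47).

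**Figure D5:**
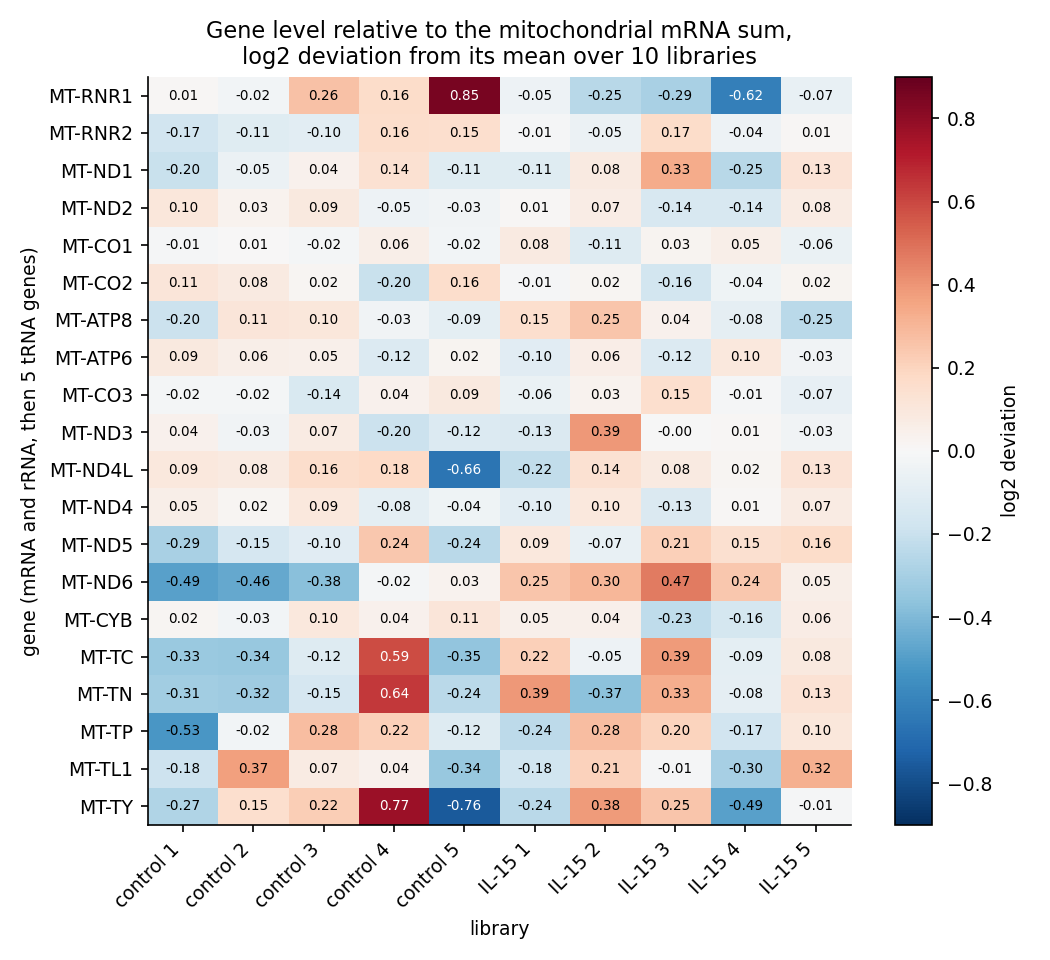
Log2 deviation of each gene's share of the summed mitochondrial mRNA from its mean over 10 libraries, for the 15 mRNA and rRNA genes in genome order followed by the 5 most abundant tRNA genes in rows, and libraries in columns. Among the mRNA and rRNA genes control library 5 departs most in MT-RNR1 (0.85) and MT-ND4L (-0.66). MT-ND6 is low in control libraries 1 to 3 and above 0 in all IL-15 libraries. It lies close to 0 in control libraries 4 (-0.02) and 5 (0.03) and in IL-15 library 5 (0.05).

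Within groups the mRNA and rRNA genes were steadier than most genes. Their SD on the log2 scale had a median of 0.22, beside 0.35 for all tested genes and 0.28 for the 190 tested genes at or above the level of the lowest of the 14 abundant members. MT-ND2 (0.16) and MT-CO1 (0.18) varied least, and MT-RNR1 (0.36) and MT-ND6 (0.32), the genes with the largest estimates among the mRNA and rRNA genes, varied most.

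Nuclear DNA carries many copies of mitochondrial genes, and reads from near-identical sequences can be split between a gene and its copy. The table held 407 rows for such copies, of which 156 had a count, and together they reached 0.477% ± 0.0508 (SD, n = 10) of the mitochondrial counts. MTATP6P1 (chromosome 1, 633696 to 634376) amounted to 3.19% ± 0.346 of the MT-ATP6 counts, MTND2P28 (chromosome 1, 629640 to 630683) to 5.08% ± 0.542 of MT-ND2, and MTCO1P12 (chromosome 1, 631074 to 632616) to 0.202% ± 0.0157 of MT-CO1. Whether these reads came from the copies or from the mitochondrial genes cannot be told apart. The log2 fold changes of the copies were -0.12 ± 0.17, -0.11 ± 0.12 and 0.12 ± 0.14 (SE).

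Respiratory complexes need nuclear-encoded partners, and the deposited FPKM of these were far lower. In each library the median FPKM of the mitochondrial subunits was 99.5 ± 22.9 times that of the nuclear subunits in complex I (7 and 37 genes), 44.1 ± 5.59 times in complex III (1 and 9), 123 ± 17.6 times in complex IV (3 and 11) and 96.1 ± 15.0 times in ATP synthase (2 and 17; SD, n = 10). The ATP synthase value is the midpoint of MT-ATP6 and the scarce MT-ATP8, whose level is uncertain, and MT-ATP6 alone stood at 184 ± 29.1 times the nuclear median. Control and IL-15 means of this ratio were 94.0 and 105 for complex I, 42.9 and 45.4 for complex III, 122 and 125 for complex IV and 95.9 and 96.4 for ATP synthase. FPKM also depends on the length listed for each gene. In control libraries UQCRB of complex III held 164 CPM and UQCR10 83.4 CPM. Their mean FPKM over all 10 libraries were 15.4 and 74.1. How far listed lengths lower the nuclear medians was not tested, so the ratios are not ratios of RNA molecules.

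Of the 78 nuclear subunits, including 4 of complex II, edgeR called 0. Their estimates leaned below 0, with 18 of 78 (23.1%) above 0 and a median log2 fold change of -0.09, beside 49% of all genes. This count depended on the scaling and on single libraries: 33 of 78 were above 0 with library size alone, 31 without control library 5 and 12 without IL-15 library 2. The members with the smallest p were NDUFS3 of complex I (-0.37 ± 0.15, SE), CYC1 of complex III (-0.43 ± 0.21), COX8A of complex IV (-0.35 ± 0.17), ATP5PD of ATP synthase (-0.28 ± 0.14) and SDHD of complex II (-0.21 ± 0.17). In the other direction they were NDUFA10 (0.24 ± 0.14), UQCRQ (0.07 ± 0.15), COX6A1 (0.05 ± 0.11) and ATP5MJ, listed as ATP5MPL (0.12 ± 0.14).

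The proteins that assemble around MT-RNR1 and MT-RNR2 showed a similar lean. Of 78 mitoribosomal protein genes 0 were called by edgeR, 13 had an estimate above 0 and the median log2 fold change was -0.12. With library size alone 28 were above 0, with upper quartile scaling 23. Leaving out single libraries gave 25 without control library 5, 24 without IL-15 library 3, 20 without IL-15 library 5, and 8 without control library 1 or without IL-15 library 2. MRPL23 was at -0.54 ± 0.19 (SE) and MRPL38 at 0.27 ± 0.27.

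Nuclear factors that transcribe, process and translate the mitochondrial genome were followed in lists, and edgeR called 0 genes in any of them. Transcription and replication factors gave 6 of 17 estimates above 0 (median -0.02), with MTERF4, a mitoribosome assembly factor of the transcription terminator family, at 0.37 ± 0.15 (SE) and TOP1MT, the mitochondrial topoisomerase, at -0.35 ± 0.19. Processing and modification factors gave 11 of 21 above 0 (median 0.01), with PRORP, the nuclease that frees the 5′ ends of tRNAs and listed as KIAA0391, at 0.30 ± 0.18 and RPUSD4, a pseudouridine synthase, at -0.38 ± 0.16. RNA stability and decay factors gave 9 of 17 above 0 (median 0.00), with PTCD1 at 0.24 ± 0.17 and the exoribonuclease REXO2 at -0.41 ± 0.19.

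Translation factors gave 6 of 13 above 0 (median -0.07), with the release factor MTRF1 at 0.44 ± 0.19 (SE) and TACO1, which aids synthesis of the MT-CO1 protein, at -0.25 ± 0.13. The mitochondrial tRNA synthetases gave 8 of 17 above 0 (median -0.05), with CARS2 at 0.25 ± 0.18 and FARS2 at -0.41 ± 0.23. Of these 5 lists of factors TUFM, the mitochondrial elongation factor, had the highest FPKM, 107, below that of every mitochondrial mRNA and rRNA gene.

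Regulators of mitochondrial biogenesis gave 3 of 8 estimates above 0 (median -0.07), and their extremes were the largest of any list. ESRRA, an orphan nuclear receptor that drives respiratory genes, stood at 159 ± 36.6 CPM under control sip-T and 105 ± 22.9 CPM with IL-15 (SD, n = 5 each), a log2 fold change of -0.68 ± 0.21 (SE; edgeR adjusted p = 0.758). Its coactivator PPARGC1A stood at 0.445 ± 0.237 and 1.34 ± 0.750 CPM, with 1.49 ± 0.48 and the same edgeR adjusted p of 0.758. PPARGC1A was scarce, with a control mean not far above the floor of 3 counts, so its estimate is uncertain. Its place among the tested genes also rests mostly on the IL-15 libraries, where its counts are higher. The groups overlapped for both genes. Of 8 hypoxia genes that act on mitochondria 7 were tested and 6 had an estimate above 0 (median 0.21), beside 49% of all genes. The mitophagy receptor BNIP3L was at 0.41 ± 0.29 (SE) and HIGD1A, which binds complex IV, at -0.02 ± 0.18. Whether the count of this short list depends on the scaling or on single libraries was not examined.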

How the data were processed

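Tumour RNA was extracted with TRIzol and read on an Illumina instrument, per the labels' protocols. The tools are fastp, featureCounts 1.5.0-p3, HISAT2 2.0.5, GATK 4.1.1.0 and DESeq2 1.20.0, with build hg38, per the submitters' processing notes. The sources used here do not state the strandedness, annotation release, handling of overlapping or multi-mapping reads, poly(A) selection, rRNA removal or removal of mouse reads. The authors deposited raw read counts per human gene, although the labels give mouse as organism, and FPKM values per gene, per the file headers.

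The members and lists were chosen with earlier results of these data known. All 247 list symbols were found, 4 of them by an older symbol. Named genes were all MT- genes (tRNA genes by value from 10 CPM), the member of each list with the smallest p in each direction, and the 3 nuclear copies with most counts. The largest estimates, outlying libraries and minus-strand genes among scarcer tRNA genes were named after their values were seen. The same holds for UQCRB and UQCR10.

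Genes were kept with filterByExpr (minimum count 10), scaled by TMM and tested with edgeR 4.0.16 (quasi-likelihood, robust, R 4.3.3) at an adjusted p of 0.05. On simulated counts for this comparison (16529 genes) it recovered 36.7% of 2-fold and 91.4% of 4-fold changes with 5 false calls. Pair ratios used log2 of counts plus 0.5 and a two-sided exact permutation test over 252 assignments (scipy 1.17.1). Ratios printed are of these counts. Sums over members were given no test. No libraries agreed within sampling noise. Mean depth, in 1e+06 counts, was 15.6 ± 1.15 for control and 15.03 ± 2.44 for IL-15 (SD, n = 5 each), and 3 counts correspond to 0.155 to 0.221 CPM. Alternatives covered scaling, filters, DESeq2 1.42.0, limma 3.58.1 (voom, and FPKM with pseudocounts of 0.1 and 1), a replicate block and the removal of single libraries.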

Additional observations from a re-analysis of the deposited data

Results flagged for a closer look

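In groups of 5 libraries, the gap between the highest or lowest library and its neighbour was compared with the group's range. Of 86 groups checked 8 had a gap above Dixon's critical value of 0.71, where chance gives about 1 in 20. These groups share genes and libraries and are not independent, so the 8 cannot be read as an excess over that rate.

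Control library 5 accounted for 2 of them: MT-RNR1 at 4172 CPM, with the next control at 2425 CPM, and an MT-ND6 over MT-ND5 ratio of 0.443, with the next at 0.321. Control library 4 accounted for 2 tRNA genes, MT-TC at 81.0 CPM (next 49.2) and MT-TN at 58.0 CPM (next 35.7). IL-15 library 5 was low in all 37 genes together, at 5.84% of counts (next 7.42%), and in the mRNA genes, at 4.73% (next 6.02%). MT-TV was high in IL-15 library 2 at 3.98 CPM (next 2.26), and MT-TT in IL-15 library 3 at 8.96 CPM (next 3.93). The cause of these gaps was not tested.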

How the results depend on the processing

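The count of mitochondrially encoded genes called was 0 in all 22 settings. Over all genes the count was 0 in the edgeR test, 1 without the low-count filter and 7 with DESeq2. The log2 difference of the mRNA sum stayed above 0, from 0.018 (summed FPKM) to 0.19, and that of the rRNA sum ran from -0.091 to 0.15. The MT-RNR2 over MT-RNR1 difference was 0.53 with the replicate block too, where the adjusted exact sign-flip p was 0.25. With 5 pairs this test cannot go below 0.0625, and the numbers do not pair the libraries: 1 of 5 correlations of same-numbered libraries was over 0.1 (from -0.22 to 0.25). With single libraries left out the pair differences ran from 0.43 to 0.60 for MT-RNR2 over MT-RNR1, -0.070 to 0.15 for MT-ND4L over MT-ND4, and 0.25 to 0.41 for MT-ND6 over MT-ND5.

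Fold changes near 0 changed sign in some settings. With library size alone MT-CO2 was at 0.038, MT-CYB at 0.018, MT-ND2 at 0.058, MT-TG at 0.0026, MT-TY at 0.041, MT-TL2 at 0.031 and MT-TM at 0.033. With upper quartile scaling MT-ND2 was at 0.018, MT-TY at 0.0073 and MT-TM at 0.0010. With FPKM at either pseudocount MT-ND4 was at -0.0019 and MT-ATP6 at -0.023, and MT-ATP6 was at -0.0078 with limma voom and -0.0070 with the replicate block. With single libraries left out the log2 fold changes that crossed 0 ran from -0.033 to 0.11 for MT-CO1, -0.024 to 0.16 for MT-RNR2, -0.036 to 0.070 for MT-ND4, -0.11 to 0.058 for MT-CO2, -0.081 to 0.069 for MT-ATP6, -0.13 to 0.018 for MT-CYB and -0.074 to 0.026 for MT-ND2. Among tRNA genes they ran from -0.0055 to 0.18 for MT-TP, -0.030 to 0.11 for MT-TL1, -0.28 to 0.046 for MT-TG, -0.19 to 0.17 for MT-TY, -0.16 to 0.20 for MT-TH, -0.27 to 0.031 for MT-TI, -0.11 to 1.02 for MT-TT, -0.27 to 0.11 for MT-TL2 and -0.46 to 0.13 for MT-TM. The causes were not tested. Depth limits the 5 untested tRNA genes and those under 10 CPM.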
